A study of Mus musculus with 8 samples.

Results

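CHD4 occupancy at the genes of 3 GATA transcription factors (Gata4, Gata5, Gata6) and of both FOG cofactors (Zfpm1, Zfpm2) was compared in mouse atria titled TBX5 KO and control. Sites were peaks of the 4 ChIP libraries merged wherever they overlapped by at least 1 bp. A site was counted for a gene when it overlapped the gene's mm10 body or the 20 kb on either side. The 5 genes held 116 of the 121267 sites in the series.

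The study asked where CHD4 binds in atria with and without TBX5, and it made ChIP libraries from right and left atria that were dissected and frozen. There were 2 TBX5 KO libraries, from mice given AAV9:Nppa-Cre, and 2 control libraries, from mice given AAV9:Nppa-EGFP. All mice of both groups were TBX5flox/flox, and the vectors were injected on postnatal day 2. The age at collection is not given in the sources used here. Cre was driven by sequence of Nppa, a gene of atrial cardiomyocytes, whereas the cell type of the tissue is labelled mixed. In such bulk tissue, fewer cells carrying a CHD4 site and less CHD4 per cell cannot be told apart. The groups were read from the titles. The genotype and treatment fields of the same libraries name the opposite group, and the treatment protocol writes CHD4 KO beside the Cre vector. A list of CHD4 peaks does not show which labelling holds, and a CHD4 peak at Tbx5 does not test whether its exons were deleted, so each direction given here is that of the titles. Whether replicates came from separate animals or pools is not stated, and any p-value therefore measures the spread between libraries, which may be technical. CHD4 peaks do not measure expression, so the labelled tissue could not be checked against expressed markers.

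GATA4, GATA5 and GATA6 are zinc finger proteins that bind GATA sequences and act in heart development, where GATA4 and GATA6 can partly replace each other and GATA4 works with TBX5 and NKX2-5 on cardiac genes. FOG1, encoded by Zfpm1, and FOG2, encoded by Zfpm2, act mainly by binding the amino-terminal zinc finger of GATA proteins. Through a short amino-terminal motif the FOG proteins recruit NuRD, a complex of histone deacetylases and the nucleosome remodeller CHD4. The peaks described here show CHD4 on the genes of these factors, not on their targets.

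The promoters of Gata5 and Zfpm1 are printed because CHD4 peaks of all 4 libraries covered most or all of each. They come from the RefSeq promoter table of GRCm38.p6, which matched these 2 of the 5 genes, and run from 250 bases before to 50 bases after the transcription start. Gata4, Gata6 and Zfpm2 are named without sequence. The Gata5 promoter is chr2:180334630-180334929 on the minus strand and that of Zfpm1 is chr8:122281891-122282190 on the plus strand. Sequences run 5′ to 3′, and capitals mark CpG dinucleotides.
Gata5: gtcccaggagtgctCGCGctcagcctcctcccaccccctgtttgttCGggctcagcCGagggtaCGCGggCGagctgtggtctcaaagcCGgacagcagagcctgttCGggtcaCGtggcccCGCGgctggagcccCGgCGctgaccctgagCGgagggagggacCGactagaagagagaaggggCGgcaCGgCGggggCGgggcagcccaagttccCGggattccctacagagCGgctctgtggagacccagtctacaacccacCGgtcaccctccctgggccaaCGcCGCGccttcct
Zfpm1: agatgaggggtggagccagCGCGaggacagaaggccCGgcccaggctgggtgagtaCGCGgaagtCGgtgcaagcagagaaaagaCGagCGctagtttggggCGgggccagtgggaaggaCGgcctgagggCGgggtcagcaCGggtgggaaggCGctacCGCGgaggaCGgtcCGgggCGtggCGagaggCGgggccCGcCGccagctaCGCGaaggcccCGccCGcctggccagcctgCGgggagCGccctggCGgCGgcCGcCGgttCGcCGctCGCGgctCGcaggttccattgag
The Gata5 promoter held 26 CpG dinucleotides at 69.7% GC, and 83.1% of the 32851 promoters in the table held fewer. The Zfpm1 promoter held 37 at 73.7% GC, more than 94.4% of promoters, against a median of 7 CpG and 52.7% GC. The letters AGATAA and TGATAA, which GATA factors bind, and AGGTGT, a T-box core, were searched on both strands, and these letters were in neither window. Of all promoters in the table, 11.2% held AGATAA, 9.05% held TGATAA and 13.7% held AGGTGT. Of the 300 bases of the Gata5 window, peaks covered 300 and 263 in TBX5 KO 1 and 2, against 269 and 300 in control 1 and 2. All 300 bases of the Zfpm1 window were covered in each of the 4 libraries.

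Across the series the TBX5 KO lists were shorter. They held 61173 and 69557 peaks over 47.6 and 57.5 Mb, against 99924 and 91520 peaks over 97.0 and 86.7 Mb in control. The ratio of the TBX5 KO mean to the control mean was 0.683 for peak number and 0.572 for covered bases. All lists began at a −log10 q of 1.303 to 1.313, and no read totals come with them, so the depth behind a call is unknown. These list-wide differences move with each result below, and their part in it was not tested.

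Fewer bases lay under CHD4 peaks at all 5 genes in both TBX5 KO libraries than in either control library. In proportion the difference was largest at Gata5 and Zfpm2 and smallest at Zfpm1 and Gata6. Gata4 (NCBI Gene 14463) spans 72.8 kb at chr14:63198914-63271712, and its region also touches Fdft1 and Neil2. Peaks there covered 26.1 and 36.6 kb in TBX5 KO 1 and 2, against 61.0 and 55.8 kb in control 1 and 2. On average 27.8% of the Gata4 region was called in TBX5 KO and 51.8% in control, a ratio of 0.537. Gata5 (NCBI Gene 14464) spans 10.4 kb at chr2:180325088-180335503, with the noncoding genes Gata5os, Gm29943 and Gm52543 in its region. Its peaks covered 2.71 and 2.98 kb in the TBX5 KO libraries, against 10.1 and 7.52 kb in the control libraries, a ratio of 0.324. The TBX5 KO libraries were close to each other at Gata5, and both lay far under control. This difference lay in the flanks. The only site that overlapped the Gata5 body had 510 and 543 bp called in TBX5 KO and 621 and 382 bp in control. Gata6 (NCBI Gene 14465) spans 33.1 kb at chr18:11052510-11085636, and the noncoding Gata6os overlaps its lower end. Called bases at Gata6 were 26.0 and 38.0 kb in TBX5 KO and 47.4 and 46.9 kb in control, a ratio of 0.678. The groups at Gata6 did not overlap, although the TBX5 KO libraries were farther from each other than TBX5 KO 2 was from control.

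Zfpm1 (NCBI Gene 22761), which encodes FOG1, spans 56.0 kb at chr8:122281856-122337862, with Zfp469, Trhr2, Gm39269 and Gm46056 in its region. Its peaks covered 23.4 and 26.5 kb in TBX5 KO, against 38.5 and 30.6 kb in control, a ratio of 0.722. The nearest libraries of the groups, TBX5 KO 2 and control 2, were closer to each other than the control libraries were. Zfpm2 (NCBI Gene 22762), which encodes FOG2, spans 450 kb at chr15:40655042-41104592 and is the longest of the genes. Called bases at Zfpm2 were 7.94 and 12.1 kb in TBX5 KO, against 30.0 and 30.8 kb in control, a ratio of 0.330. The control libraries nearly coincided at Zfpm2, and both TBX5 KO libraries were well below them. Over the 5 genes together, 101 ± 21.2 kb were called in TBX5 KO and 179 ± 10.8 kb in control (SD, n = 2 each), a ratio of 0.564. The two-sided exact permutation test gave p = 0.333 for each gene and for the sum, which is the lowest value possible with 2 libraries a group, so the design cannot reach 0.05.

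**Figure D1:**
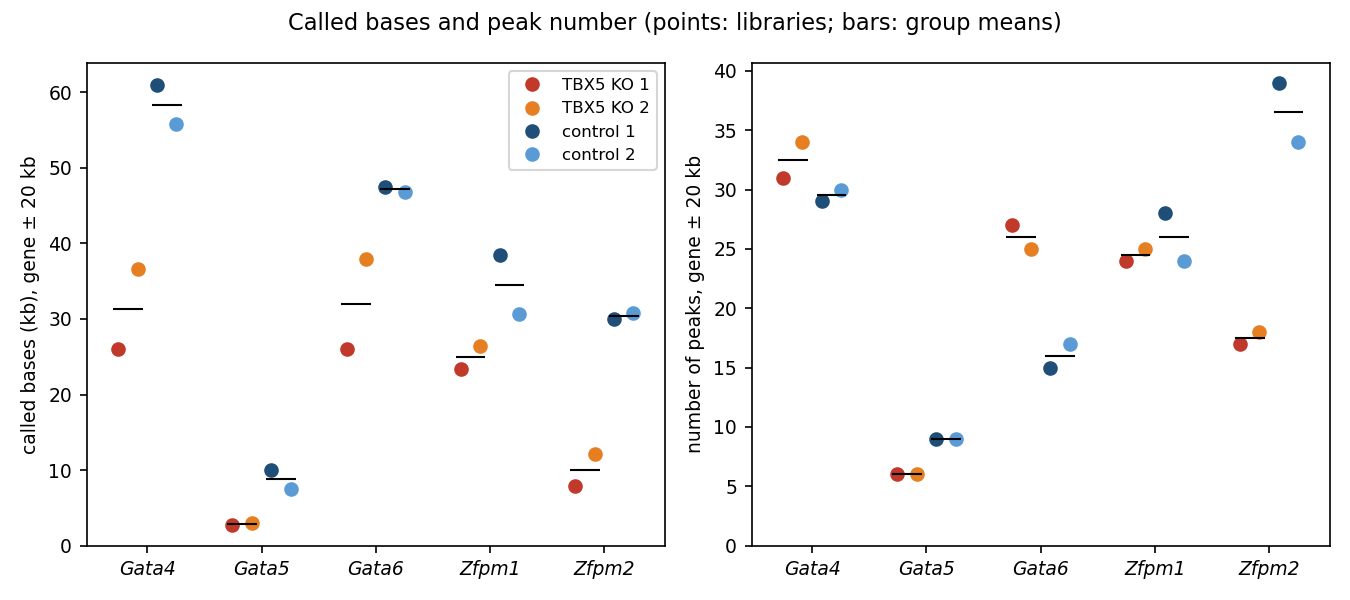
Called bases in kb (left) and number of peaks (right) in the gene body plus 20 kb on each side, for each library, with TBX5 KO points left of control points and a bar at each group mean. All 5 genes had fewer called bases in both TBX5 KO libraries, while Gata6 had 27 and 25 peaks in TBX5 KO against 15 and 17 in control.

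Having fewer called bases in both TBX5 KO libraries was common: it held for 77.9% of the 16091 protein-coding genes with called bases in both control libraries. Of the 2812 genes with at least 20% of the region called in control, as at Gata4, Gata6 and Zfpm1, 97.0% had fewer, with a median ratio of 0.605 and quartiles of 0.512 and 0.689. Gata6 lay under that upper quartile and Zfpm1 above it. The size of the difference placed the genes apart. Among the 16091 genes, the ratios of Gata5 and Zfpm2 were at percentiles 8.50 and 8.81, that of Gata4 at 30.1, and those of Gata6 and Zfpm1 at 57.7 and 65.9. The median ratio of the 16091 genes was 0.641, with quartiles of 0.503 and 0.781. The density of CHD4 peaks also differed among the genes. At Gata6, 43.7% of the region was called in TBX5 KO and 64.5% in control, and 70 genes in TBX5 KO and 62 in control had a larger share. For Gata4, 424 genes in TBX5 KO and 221 in control had a larger share. Zfpm1, at 26.0% in TBX5 KO and 36.0% in control, had 528 genes above it in TBX5 KO and 847 in control. Its place among genes was therefore higher in TBX5 KO, whereas those of the GATA genes and Zfpm2 were lower. Gata5 was called over 5.64% in TBX5 KO and 17.4% in control, and Zfpm2 over 2.05% in TBX5 KO and 6.21% in control. They were the least covered of the 5 genes and had the lowest ratios of the 5. Among all genes, the control shares of Gata5 and Zfpm2 stood at percentiles 84.5 and 61.4.

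**Figure D2:**
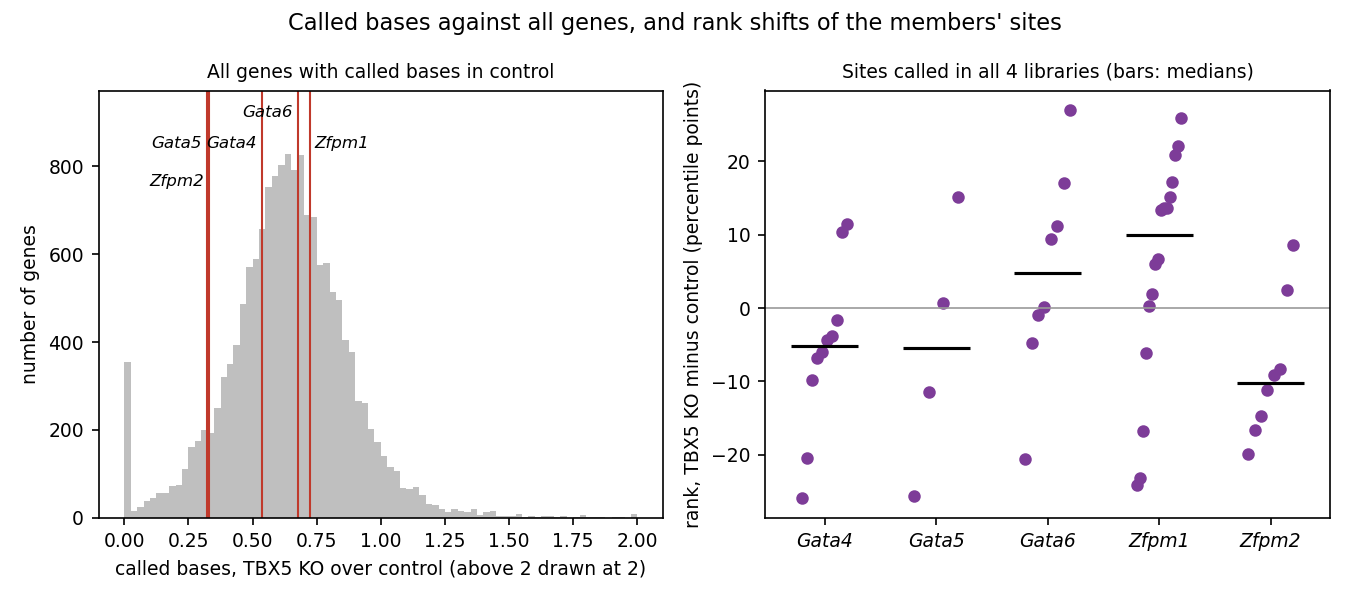
Left, distribution over all genes with called bases in both control libraries of the ratio of called bases, TBX5 KO over control, with a red line for each of the 5 genes. Right, rank shift of each of the 46 sites called in all 4 libraries, as TBX5 KO minus control in percentile points, with median shifts of 10.02 at Zfpm1 and −10.2 at Zfpm2.

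The number of separate peaks was lower along with the called bases at Gata5 and Zfpm2, but not at Gata4 and Gata6. At Gata6 there were 27 and 25 peaks in TBX5 KO, against 15 and 17 in control, although fewer bases were called. Gata4 had 31 and 34 peaks in TBX5 KO and 29 and 30 in control. More peaks in both TBX5 KO libraries than in both control libraries was thus seen at 2 of the 5 genes, and at 2.29% of all genes. That share was not taken among densely covered genes alone, and only 221 and 62 genes had a larger called share in control than Gata4 and Gata6. At Gata4 the nearest libraries of the groups had 31 and 30 peaks. Gata5 had 6 and 6 peaks in TBX5 KO and 9 and 9 in control, and Zfpm2 had 17 and 18 in TBX5 KO and 39 and 34 in control. Fewer peaks in both TBX5 KO libraries was seen at 43.4% of all genes. At Zfpm1 the groups overlapped, with 24 and 25 peaks in TBX5 KO and 28 and 24 in control. The exact permutation p was 0.333 at each gene except Zfpm1, where it was 1. Summed over the genes, TBX5 KO had 105 and 108 peaks and control had 120 and 114, a difference of −10.5. With all lists trimmed by −log10 p to the 61173 peaks of the shortest, the sums were 105 and 98 in TBX5 KO and 73 and 87 in control, so the sign of this difference turned. The ratio of called bases in the trimmed lists was 0.617.

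**Figure D3:**
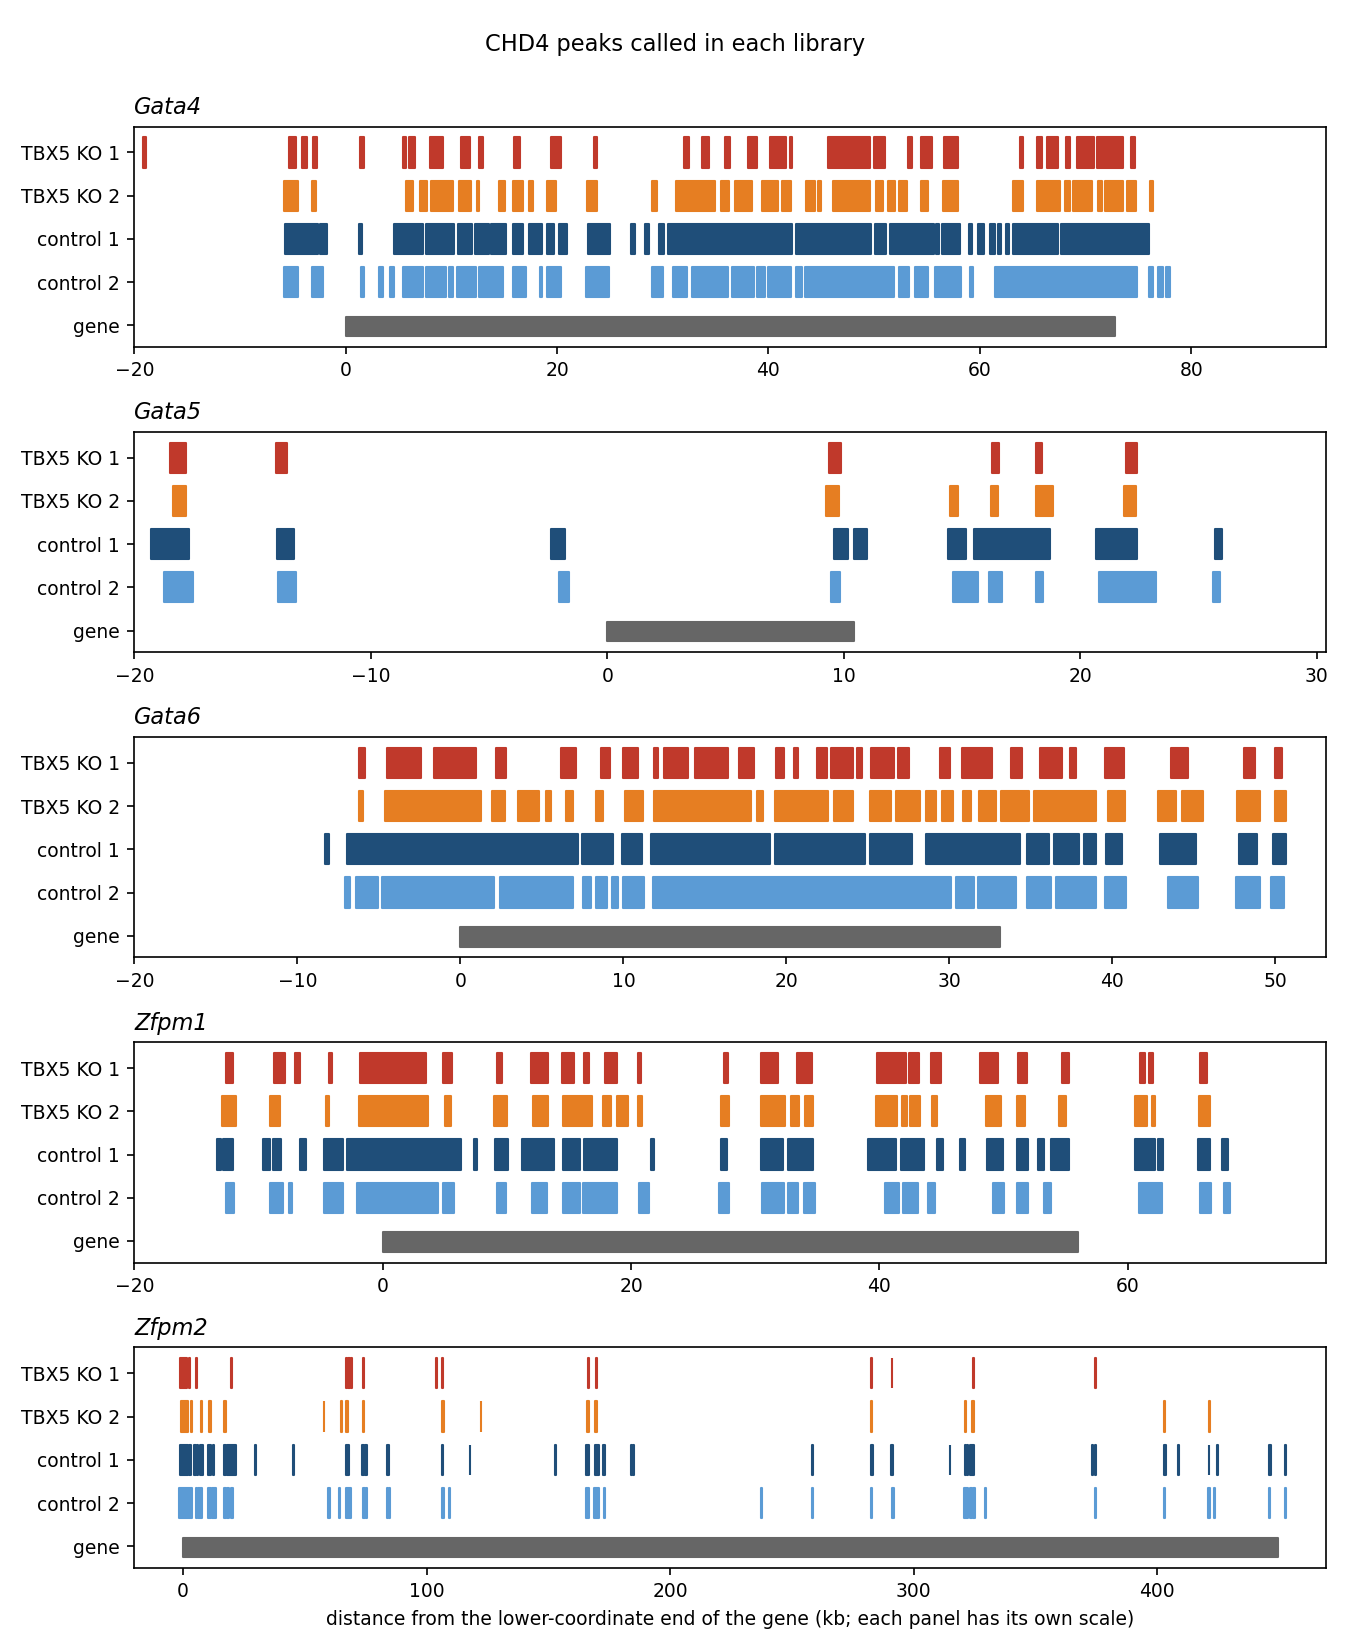
Peaks of each library along the 5 gene regions, as distance in kb from the gene's lower-coordinate end, with TBX5 KO rows above control rows and the gene body in grey. Each panel has its own scale, and the outline makes the thinnest peaks look wider than they are. The widest peak at Gata6 was 2569 and 5987 bp in TBX5 KO against 14181 and 18275 bp in control, while the Gata4 block that starts 30.5 kb inside the gene was in pieces in control 2 as well, the widest being 3774 bp in TBX5 KO 2 and 3393 bp in control 2.

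At Gata6 the stretches under wide CHD4 peaks in control held shorter peaks in both TBX5 KO libraries, and so did the wide Gata4 sites other than chr14:63229421-63241180. A wide site was one with a peak of at least 2 kb in both control libraries, and 9 of the 116 sites were wide: 4 at Gata4, 2 at Gata6, 2 at Zfpm1 and 1 at Zfpm2. Since wide sites were chosen by their control peaks, shorter peaks in TBX5 KO are a description and not a test. Of these 9, 8 held at least 2 separate peaks in both TBX5 KO libraries, against 40.3% of the 6433 wide sites of the series. The same 8 are those split in at least 1 TBX5 KO library, for which the share of all wide sites was 68.5%. Splitting was also common in control, as 5 of the 9 held several peaks in control 1 and 6 in control 2. More peaks in both TBX5 KO libraries than in both control libraries was found at 4 of the 9, and at 20.9% of all wide sites. No wide site at the genes lacked a peak in both TBX5 KO libraries, which happened at 0.762% of all wide sites. Splitting went with length: 6 of the 9 spanned at least 9 kb and all 6 were split in both TBX5 KO libraries, as were 400 of the 417 such sites in the series. In the other direction, 6 sites had a peak of at least 2 kb in both TBX5 KO libraries, and 6 of the 6 were split in at least 1 control library, against 50.8% of such sites in the series, so splitting was seen in both directions. Split in at least 1 TBX5 KO library were 10 of 15 wide sites without control 1, against 58.7% in the series, and 17 of 21 without control 2, against 58.8%.

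The longest site lay at Gata6, inside the gene and across its upper end, at chr18:11064217-11091533. It spanned 27.3 kb, and 8 sites in the series spanned more. It held 16 and 12 peaks in TBX5 KO 1 and 2, against 7 and 5 in control 1 and 2. Called bases in it were 14606 and 21937 bp in TBX5 KO and 24753 and 25592 bp in control. More pieces thus covered fewer bases in both TBX5 KO libraries, and TBX5 KO 1 had the shortest pieces, with a widest peak of 2070 bp against 5987 bp in TBX5 KO 2. At the lower end of Gata6, the site chr18:11045445-11059712 held 5 and 6 peaks in TBX5 KO and 1 and 4 in control. Its widest peak measured 2569 and 5907 bp in TBX5 KO, against 14181 and 6836 bp in control. The strongest summits of this site stayed within 35 bp of each other in all 4 libraries, close to the gene end, while the bases called around them differed. Its mean percentile by −log10 p in control was 98.5, the highest at Gata6.

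At Gata4 the widest site by control bases ran across the upper end of the gene, at chr14:63259867-63274948. It held 7 and 7 peaks in TBX5 KO, against 5 and 1 in control. Called bases there were 6724 and 8401 bp in TBX5 KO and 13666 and 13448 bp in control. As at Gata6, the strongest summits lay within 133 bp of each other across the libraries, near the gene end at 63271712. The site of highest control rank, inside Gata4 at chr14:63241482-63254553, held 4 and 7 peaks in TBX5 KO and 3 and 4 in control, so the groups touched. Called bases in it were 6355 and 7424 bp in TBX5 KO, against 12338 and 11210 bp in control, and its strongest summits spread over 138 bp. The other wide sites inside Gata4 differed from these. In chr14:63229421-63241180 the strongest summit moved by up to 9711 bp between libraries, with 6 and 5 peaks in TBX5 KO and 1 and 5 in control. Its widest peak measured 1550 and 3774 bp in TBX5 KO, against 11713 and 3393 bp in control, so the groups overlapped. The narrowest wide site, chr14:63221644-63223911, kept 1 peak in each library, with 341 and 959 bp called in TBX5 KO and 2033 and 2138 bp in control.

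At Zfpm1 the strongest and widest site covered the lower gene end and the promoter printed above, at chr8:122278948-122288154. It held 2 and 2 peaks in TBX5 KO, against 1 and 2 in control, and 6112 and 6052 bp were called in TBX5 KO against 9207 and 7401 bp in control. By −log10 p it stood at percentiles 99.7 and 99.9 in TBX5 KO and 99.5 and 99.4 in control among the 38043 sites called in all 4 libraries. It was thus near the top in every library and narrower in both TBX5 KO libraries. The second wide Zfpm1 site, chr8:122296301-122301577, held 3 and 3 peaks in TBX5 KO and 2 and 2 in control. The single wide site of Zfpm2 lay over its lower end at chr15:40653191-40658863. It held 2 and 2 peaks in TBX5 KO and 2 and 1 in control, and 3007 and 2943 bp were called in TBX5 KO against 4137 and 5673 bp in control. Over the 9 wide sites the median ratio of called bases was 0.599, against 0.720 over all wide sites.

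**Figure D4:**
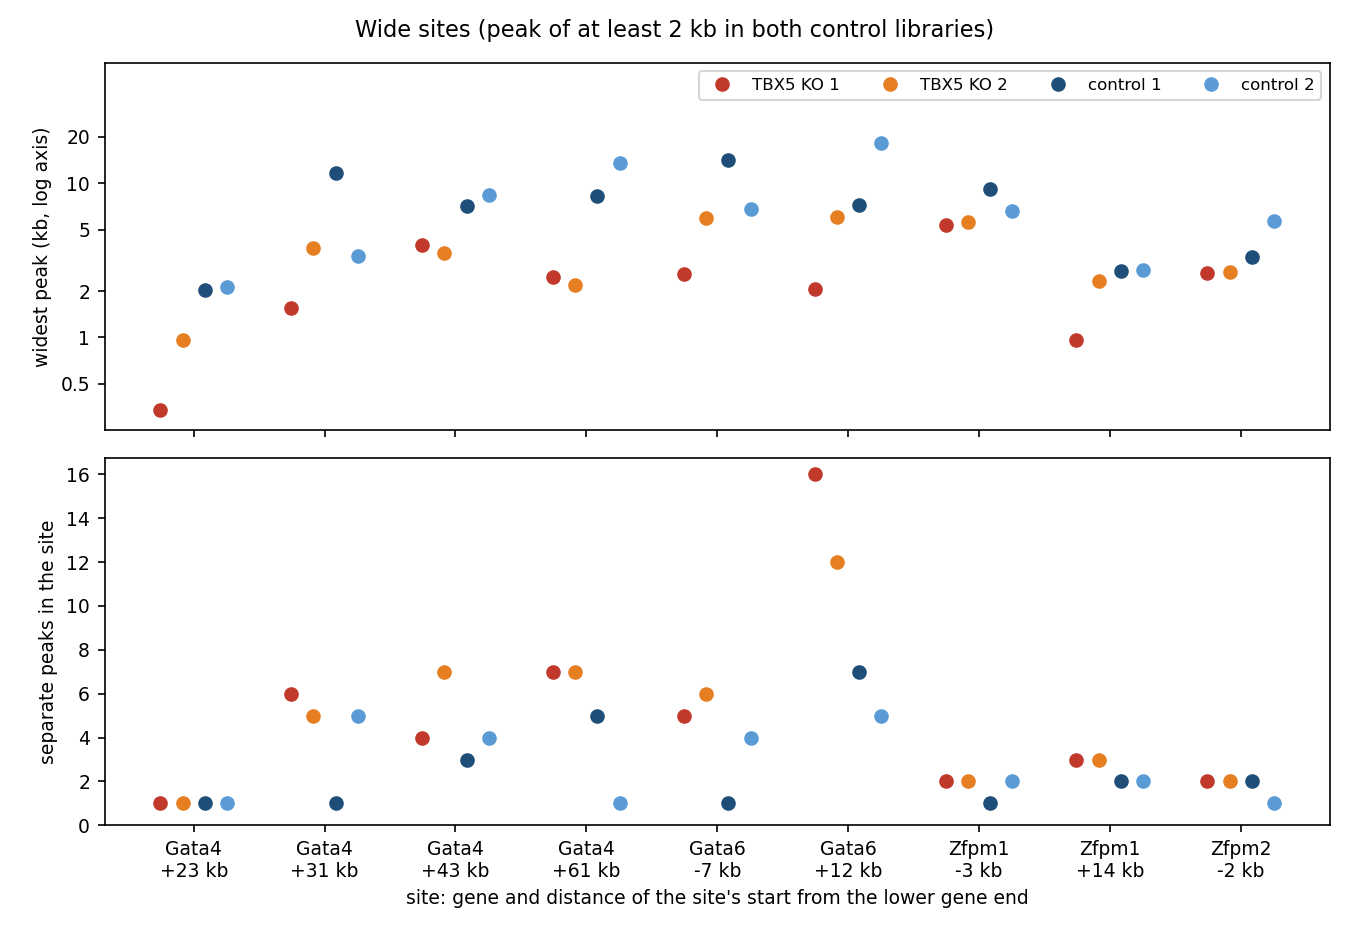
Width of the widest peak in kb on a log axis (top) and number of separate peaks (bottom) in the 9 wide sites of the genes, with TBX5 KO points left of control points; labels give the distance of the site's start from the lower gene end. The Gata6 site that starts 11.7 kb inside the gene held 16 and 12 peaks in TBX5 KO against 7 and 5 in control.

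Most sites that both control libraries shared at these genes were also called in TBX5 KO. The control libraries shared 72 sites, and all 4 libraries shared 46 of them, against a series share of 55.8%. Absent from both TBX5 KO lists were 13 of the 72, or 18.1%, against 24.9% in the series; these are called control-only. The remaining 13 were called in 1 TBX5 KO library. The TBX5 KO libraries shared 48 sites, of which 0 were missing from both control lists, against 1.91% in the series. A further 33 sites were called in 1 control library alone and 7 in 1 TBX5 KO library alone. The number of control-only sites rests on each library: it was 31 of 103 without control 1, 44 of 113 without control 2, 18 of 73 without TBX5 KO 1 and 21 of 75 without TBX5 KO 2. As shares these were 30.1%, 38.9%, 24.7% and 28%, against series shares of 36.9%, 40.6%, 31.3% and 37.9%, so the series share was higher than 24.9% each time as well. In lists trimmed to equal length it was 4 of 54, with 14.8% in the series, and the sites found only in TBX5 KO were 2 of 48, with 5.89% in the series. Where sites were instead defined by summits within 250 bp of each other, the sites found only in TBX5 KO were 10 of 54, or 18.5%, against 8.08% in the series, so the members then stood above the series share and not below it.

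Zfpm2 held 8 of the 13 control-only sites, which were 32.0% of the 25 sites that the control libraries shared there. Gata5 had 2 of 7, Zfpm1 2 of 18, Gata4 1 of 14 and Gata6 0 of 8. All 8 Gata6 sites shared by the control libraries had peaks in every library, as had 16 of 18 at Zfpm1, 10 of 14 at Gata4, 4 of 7 at Gata5 and 8 of 25 at Zfpm2. A merged site counts as called when any part of it holds a peak, so these counts depend on site length. Of the bases under peaks of both control libraries, 16.3% at Gata6 and 40.6% at Zfpm2 lay under no TBX5 KO peak. With sites defined by summits within 250 bp, control-only sites were 1 of 10 at Gata6 and 9 of 21 at Zfpm2. Sites of low rank in control were more often control-only throughout the series: of 10 bins of equal size by control rank, 64.1% of the sites in the lowest bin and 0.426% in the highest were control-only. With the series share of each bin, the sites of Zfpm2 would hold 6.73 control-only sites, against 8 found. The corresponding numbers were 3.12 at Gata4, 2.05 at Gata5, 1.27 at Gata6 and 3.55 at Zfpm1, and 16.7 over the 5 genes, against 13 found. The bins take no account of site length. Of the 25 Zfpm2 sites, 2 were in the upper 3 bins, whereas 7 of 14 were at Gata4 and 7 of 18 at Zfpm1. In lists of equal length the control-only sites of Zfpm2 were 3 of 17, against 14.8% in the series, and at a −log10 q of at least 5 they were 9 of 17, against 29.1% in the series.

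**Figure D5:**
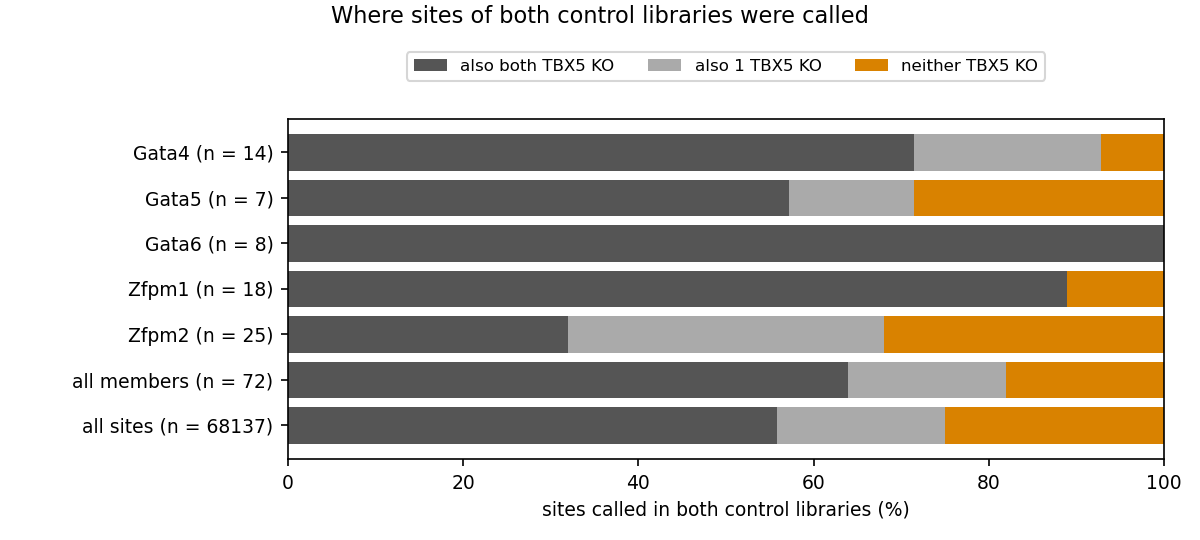
Share in percent of the sites called in both control libraries that were also called in both, in 1 or in neither TBX5 KO library, for each gene, for the 5 genes together (n = 72) and for the series (n = 68137). Gata6 had no site that was called in neither TBX5 KO library, and Zfpm2 had 32.0%.

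The strongest control-only site lay inside Zfpm2, 18.0 kb from its lower end, at chr15:40673049-40674262. It had a mean control percentile of 72.4, with 1148 and 899 bp called in control 1 and 2 and no peak in TBX5 KO 1 or 2. Next at Zfpm2 were chr15:40913233-40913720 in the middle of the gene at percentile 54.1, chr15:41101057-41101657 at 45.9 and chr15:40738730-40739584 at 45.2. The last of these overlaps the noncoding Gm33353. The site chr15:41107630-41108026, beyond the upper end, stood at 36.0 and chr15:40827305-40828315 at 34.8. At Zfpm1 the control-only sites were chr8:122349426-122350075, outside the gene at percentile 61.5, and chr8:122334597-122335659, inside it at 19.98. The Gata5 pair lay on either side of the gene, at chr2:180322726-180323476 with percentile 17.8 and chr2:180350717-180351105 with percentile 20.1. The Gata4 site was chr14:63257849-63258275, inside the gene at 29.6. The median control percentile of the 13 sites was 34.8, against 71.0 for the 46 sites called in all 4 libraries.

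At Gata5 the gene end site chr2:180334350-180335281, which holds the promoter printed above, had 510 and 543 bp called in TBX5 KO and 621 and 382 bp in control, so the groups overlapped. The neighbouring end site chr2:180335534-180336082 was called in 1 control library only. The Gata5 site of highest control rank, chr2:180305796-180307570, lay in the lower flank, with 677 and 550 bp in TBX5 KO and 1587 and 1248 bp in control. The widest, chr2:180339493-180343937, had 562 and 1384 bp in TBX5 KO, against 3983 and 1942 bp in control. Called bases thus differed between groups in the flanks of Gata5 and overlapped at its promoter. At the upper end of Zfpm1, chr8:122335687-122337149 had peaks in each TBX5 KO library and in 1 control library.

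Among the 46 sites called in all 4 libraries, 32 had fewer called bases in both TBX5 KO than in both control libraries, or 69.6%, against 57.3% of the 38043 such sites in the series. More called bases in both TBX5 KO libraries were found at 0 of the 46, and at 3.3% in the series. Median called width over the 46 sites was 855 and 1105 bp in TBX5 KO 1 and 2, against 1662 and 1520 bp in control 1 and 2. The median ratio per site was 0.659 (SD 0.106 over the pairs of libraries), against 0.747 in the series. These pairs share libraries, so the SD is not a spread over independent replicates. By gene the median ratio was 0.581 at Gata4, 0.381 at Gata5, 0.748 at Gata6, 0.764 at Zfpm1 and 0.497 at Zfpm2. Fewer bases in both TBX5 KO libraries were called at 9 of 10 sites at Gata4, 3 of 4 at Gata5, 5 of 8 at Gata6, 8 of 16 at Zfpm1 and 7 of 8 at Zfpm2. Gata6 and Zfpm1 were close to the series median, and the other genes were under it.

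Median shifts in rank by −log10 p among the sites called in all 4 libraries differed between the genes, but the genes were not separated. Shifts of single sites, TBX5 KO minus control, ran from −24.1 to 25.9 percentile points at Zfpm1 and from −19.96 to 8.56 at Zfpm2. At Zfpm1 the median shift was 10.02 percentile points toward higher rank in TBX5 KO, and 10 of its 16 sites ranked higher in both TBX5 KO libraries than in both control libraries, against 25.2% in the series. At Zfpm2 the median shift was −10.2 points, and 3 of 8 sites ranked lower in both TBX5 KO libraries and 0 higher, against 22.1% lower in the series. Medians were −5.12 points at Gata4, −5.39 at Gata5 and 4.79 at Gata6. Over the 46 sites 16 ranked higher and 11 lower, with a median shift of −0.431 points, against 0.816 in the series. Wide blocks of the GATA genes were among those that ranked lower. The 27.3 kb Gata6 site stood at percentiles 42.1 and 47.8 in TBX5 KO and 57.8 and 73.3 in control. The Gata4 site chr14:63229421-63241180 stood at 38.7 and 45.3 in TBX5 KO, against 72.7 and 63.2 in control. Neither overlapped between groups, but each rank is that of the highest peak in the site. Between libraries the strongest summits lay up to 21232 bp apart at the Gata6 site and 9711 bp at the Gata4 site. These ranks therefore do not follow a single position.

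Base by base, 144 kb at the 5 genes lay under peaks of both control libraries. Of these bases 44.2% were also under peaks of both TBX5 KO libraries and 24.2% under peaks of neither, against 48.4% and 28.2% in the series. Near gene ends (within 2 kb), the share kept in both TBX5 KO libraries was 66.6% at the 5 genes, and farther away it was 40.8%, against 66.3% and 40.9% in the series. At Zfpm1 the share was 96.6% near the gene ends and 55.7% farther away. At Zfpm2 it was 68.9% near the ends and 13.1% in the rest of its region. Gata6 differed least by place, with 54.3% near the ends and 49.0% farther away, and Gata4 had 58.9% near and 38.6% farther. At Gata5 it was 47.2% near, over 0.492 kb, and 28.7% farther.

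Genes that work with the GATA and FOG proteins were examined in the same way. For comparison, the series had 24.9% control-only sites and a median gene ratio of 0.641, and 77.9% of its genes had fewer called bases in both TBX5 KO libraries. The NuRD list was near these values. The other GATA family genes Gata1, Gata2, Gata3 and Trps1 had 2 control-only sites of 15 and a median ratio of called bases of 0.673. The 12 genes of NuRD subunits had 24 control-only sites of 90 (26.7%), a median ratio of 0.641, and fewer called bases in both TBX5 KO libraries at 10 genes. Most of their control-only sites were at Gatad2a with 9, Mbd3 with 4, and Chd4 and Mta3 with 3 each. The 7 genes of GATA4 partners in cardiac transcription had 28 of 81 (34.6%) and a median ratio of 0.544, led by Tbx5 with 8, Mef2c with 7 and Tbx20 with 6. Textbook GATA4 targets had 23 of 67 (34.3%) and a median ratio of 0.427, led by Myh7 with 9 and Myh6 and Slc8a1 with 8 each, where Myh6 and Myh7 are neighbours that share sites. Cardiac T-box genes had 16 of 50 (32.0%) and a median ratio of 0.666. Of these 16, Tbx5 held 8 and Tbx20 held 6, and both genes are also in the list of partners, so the 2 lists are not independent. Tbx5 is the floxed gene itself. The T-box ratios were far apart, at 0.258 for Tbx5, 0.286 for Tbx20, 0.666 for Tbx3, 0.868 for Tbx2 and 1.15 for Tbx18. Called bases were fewer in both TBX5 KO libraries at 4 of these 5 genes. The 5 GATA and FOG genes, at 18.1% and 0.537, had a smaller control-only share than the partner and target lists and a median ratio close to that of the partners, and no test was made between the lists.

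Regions of cell type markers differed between the groups as well. In the series, 77.9% of genes had fewer called bases in both TBX5 KO libraries, 24.9% of sites were control-only and the median gene ratio was 0.641. The 5 atrial cardiomyocyte markers had 13.3 and 21.9 kb called in TBX5 KO 1 and 2 in sum, against 98.5 and 97.6 kb in control 1 and 2, with fewer in both TBX5 KO libraries at 5 of 5 genes. They had 22 control-only sites of 44 (50%) and a median ratio of 0.209. Their regions were called over 0.962% to 14.2% in TBX5 KO and 26.6% to 47.9% in control, and Bmp10 and Nppa had no called bases in TBX5 KO 1. Nppa is also in the list of GATA4 targets, so these lists are not independent. Sums over the 5 endothelial markers were 57.8 and 62.8 kb in TBX5 KO and 114 and 102 kb in control, with fewer in both TBX5 KO libraries at 5 of 5 genes, 11 control-only sites of 60 (18.3%) and a median ratio of 0.504. The 5 fibroblast markers summed to 26.9 and 31.0 kb in TBX5 KO and 52.6 and 55.9 kb in control, with fewer at 5 of 5 genes, 4 of 42 control-only sites (9.52%) and a ratio of 0.555. The 3 epicardial markers overlapped between groups, at 4.68 and 6.97 kb in TBX5 KO and 9.41 and 6.48 kb in control, with fewer at 2 of 3 genes, 2 of 11 control-only sites (18.2%) and a ratio of 0.7003. The epicardial marker Tbx18 is also among the cardiac T-box genes. The ratios of the 5 GATA and FOG genes, from 0.324 to 0.722, all lay above the highest of the atrial cardiomyocyte markers, 0.297. Those of Gata5 and Zfpm2 lay under the lowest of the other marker genes, 0.398 at Cdh5. The part of cell makeup in these differences was not tested.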

How the data were processed

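CHD4 ChIP-seq of mouse atria gave 4 ChIP libraries with 1 peak list each, so replicates were called separately. Reads of the 4 input libraries went into the deposited lists, per the series design text, and are otherwise not used here. Tools named by the submitters' processing notes are MACS2 and DiffBind, with build mm10. Versions and the aligner are not given in the sources used. The fold in the authors' lists is the signal value column, the ratio of a peak to its local background as MACS2 writes it, the −log10 p and −log10 q deposited come from their peak caller, and the deposited score is 10 times −log10 q without its decimals at nearly all peaks. These values were used to rank and filter peaks within a list, and comparisons rest on which bases and sites were called. The lists give no reads, so the depth is unknown and a site not called may lie just under the threshold of q = 0.05.

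Gene ends came from a RefSeq table of GRCm38.p6, the assembly behind mm10, without strand or exons. Called bases and peak numbers were compared over libraries (2 against 2) by exact permutation, two-sided. Shares of sites, widths, splits of wide sites and ranks are descriptions, with the same values over all sites or genes beside them. The members, the gene lists and the measures were chosen with earlier results of these data known. The span of 9 kb, the base-by-base shares, the rule of more peaks, the split of wide sites with exchanged groups and the values per gene in lists of equal length were added after values were seen. Named sites were, per gene, the one of highest mean control percentile, the widest by control bases, those within 1 kb of a gene end, up to 6 control-only sites by control percentile, and every site called only in TBX5 KO; other wide sites were chosen after their values were seen. Related genes were named up to 3 per list by their control-only sites, with ties. Alternatives were lists of equal length, a minimum −log10 q of 3 or 5, sites by summits within 250 bp or by 50% overlap of the shorter peak, flanks of 10 kb or none, wide sites of 1 or 3 kb, leaving out each library, a replicate block and exchanged groups. The start of the FOG proteins was planned and is not used here. Site patterns, splits, width ratios and the permutation test were tested on simulated peak lists. Work was done in Python 3.11.15 with pandas 2.3.3, numpy 2.4.6 and matplotlib 3.10.9.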

Additional observations from a re-analysis of the deposited data

How the results depend on the processing

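Over all alternatives run, called bases at the 5 genes stayed lower in TBX5 KO than in control except with exchanged groups, where the difference is 78131 bp in place of −78131 bp by construction; leaving out a library gave −93097 to −63166 bp. The difference in peak number was −10.5, and −13.5 to −7.5 without 1 library, and it reversed to 21.5 in lists of equal length and to 10.5 with exchanged groups. Control-only sites numbered 13, against 18 to 44 without 1 library, 4 in lists of equal length and 0 with exchanged groups. Sites called only in TBX5 KO numbered 0, against 1 to 4 without 1 library, 2 in lists of equal length, 10 of 54 where summits within 250 bp define a site (8.08% in the series) and 13 with exchanged groups. Split wide sites numbered 8 of 9, against 16 of 29 at 1 kb (38.9% in the series). Without 1 library they numbered 8 to 17, as 10 of 15 without control 1, 17 of 21 without control 2 and 8 of 9 without TBX5 KO 1 and again without TBX5 KO 2, with series shares of 52.5% to 58.8%. With exchanged groups, an alternative chosen after seeing the data, they numbered 6 of 6. The median width ratio was 0.659, against 0.538 to 0.672 without 1 library and 1.52 with exchanged groups. The median rank difference was −0.431, against −4.29 without flanks and −2.36 to 0.508 without 1 library, and the cause was not tested. It was 1.54 at a −log10 q of at least 5. Replicate numbers are not tied to a shared animal or day in the labels, and same-numbered libraries did not deviate together (r = −0.0202 for called bases and −0.0141 for rank, across 38043 sites, which are not independent replicates). Taken as a replicate block, control-only sites (13), called bases (−78131 bp) and peak number (−10.5) keep their values by construction. The block therefore does not test them. The exact sign-flip p for called bases and peak number was 0.5, the smallest that 2 pairs allow. Counts near the calling threshold are limited by the unknown depth.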
